A study of Mus musculus with 9 samples.

Results

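The Fc gamma receptors are the cell-surface proteins through which macrophages bind the constant (Fc) part of immunoglobulin G. The genes described here were the receptors Fcgr1, Fcgr2b, Fcgr3 and Fcgr4 and the signalling chain Fcer1g, chosen by symbol: 5 of the 29763 named genes of the expression table, all 5 of which were among the 11133 genes that reached at least 1 TPM (transcript abundance, scaled by transcript length and by the library total) in at least 3 libraries. PolyA RNA was sequenced from mouse macrophages that had been differentiated from primary bone marrow, for 7 days in 30% L929 supernatant, which supplies the growth factor M-CSF. All cells then received interferon-gamma at 40 ng/ml for 12 h, so no library shows the unstimulated level of a receptor. The 3 genotypes were wild type (WT), a deficiency of Ndufa4l3-miR147 (Ndufa4l3-miR147 KO, also called Nmes1-deficient) and a deficiency of Ndufa4 (Ndufa4 KO), with 3 libraries each. Ndufa4 is a subunit of mitochondrial complex IV, and Ndufa4l3 is a related small protein whose gene also carries the microRNA miR-147. The labels call the replicates technical and do not give the number of mice, their age or their strain, so each p-value measures the spread between libraries and not between animals.

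The receptors fall into groups of opposite sign. Fcgr1, Fcgr3 and Fcgr4 are activating: each pairs with a dimer of the Fcer1g chain, whose tyrosine motifs (ITAMs) are phosphorylated by Src-family kinases and recruit the kinase Syk when immune complexes cross-link the receptors, which leads to phagocytosis and cytokine release. Fcgr2b is the inhibitory receptor: it has no Fcer1g partner and carries an inhibitory motif (ITIM) in its own tail that recruits the lipid phosphatase encoded by Inpp5d. In macrophages the balance between both kinds sets how readily bound antibody triggers the cell, and interferon-gamma is a classical inducer of the high-affinity receptor Fcgr1.

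In the GENCODE M21 annotation of GRCm38 all 5 are protein-coding genes, and 4 of them form a cluster on chromosome 1. Fcgr2b (ENSMUSG00000026656.15) spans chromosome 1, 170958617 to 170976547, on the minus strand. Fcgr4 (ENSMUSG00000059089.4) spans 171018920 to 171029761 on the plus strand, Fcgr3 (ENSMUSG00000059498.13) 171051174 to 171064935 on the minus strand and Fcer1g (ENSMUSG00000058715.11) 171229572 to 171234365 on the minus strand. Fcgr1 (ENSMUSG00000015947.10) lies apart, at chromosome 3, 96282909 to 96293969, on the minus strand. Both mm10 (GRCm38) and GRCm39 are named in the submitters' processing notes, so these positions describe the genes and were not used for any expression value. Positions from this annotation did set the choice of neighbouring genes and the distances given below.

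Fcgr2b and Fcgr3 encode closely related IgG-binding domains, which matters for a table built from short reads. Of the 1733 distinct 31-base words in the annotated Fcgr3 transcripts 233 (13.4%) also occur in Fcgr2b transcripts, where they make up 4.15% of 5609 words, and no other pair of the 5 genes shares one. The longest coding stretch they share has 129 bases, at positions 278 to 406 of the coding sequence of Fcgr2b and 263 to 391 of that of Fcgr3. It is shown because a read from it fits both genes, and Fcgr3 was by far the more abundant of the pair.
Fcgr2b and Fcgr3, shared coding stretch: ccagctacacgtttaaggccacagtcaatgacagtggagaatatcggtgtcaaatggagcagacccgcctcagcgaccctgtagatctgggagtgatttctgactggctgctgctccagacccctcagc
The sources used here do not say how such reads were divided.

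The regions around the start sites are shown for the gene that fell (Fcgr2b) and for the activating receptors, because interferon-gamma acts through the GAS element (TTCNNNGAA), and related genes carry the interferon-stimulated response element, searched here as 2 copies of GAAA with any 2 bases between them (GAAA, NN, GAAA). The third motif is the core of the site of PU.1, the macrophage-determining factor encoded by Spi1, searched as GAGGAA. Each was searched on both strands in RefSeq windows of GRCm38.p6 from 250 bases before to 50 bases after the start site, for which all 5 genes had an entry. The sequences are printed 5′ to 3′ along the gene, with motif matches in capitals.
Fcgr2b, chr1:170976022-170976321, minus strand: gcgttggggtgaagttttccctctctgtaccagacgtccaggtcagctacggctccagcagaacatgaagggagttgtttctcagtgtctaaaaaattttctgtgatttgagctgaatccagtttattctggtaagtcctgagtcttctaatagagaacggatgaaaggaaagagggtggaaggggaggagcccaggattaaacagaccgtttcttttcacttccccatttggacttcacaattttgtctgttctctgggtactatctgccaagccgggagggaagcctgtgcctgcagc
Fcgr1, chr3:96293920-96294219, minus strand: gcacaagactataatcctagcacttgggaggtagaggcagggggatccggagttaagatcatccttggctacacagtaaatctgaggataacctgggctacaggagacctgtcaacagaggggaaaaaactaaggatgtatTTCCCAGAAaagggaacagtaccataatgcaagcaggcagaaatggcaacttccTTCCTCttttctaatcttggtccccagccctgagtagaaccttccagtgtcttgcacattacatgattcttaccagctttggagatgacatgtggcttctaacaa
Fcgr3, chr1:171059354-171059653, minus strand: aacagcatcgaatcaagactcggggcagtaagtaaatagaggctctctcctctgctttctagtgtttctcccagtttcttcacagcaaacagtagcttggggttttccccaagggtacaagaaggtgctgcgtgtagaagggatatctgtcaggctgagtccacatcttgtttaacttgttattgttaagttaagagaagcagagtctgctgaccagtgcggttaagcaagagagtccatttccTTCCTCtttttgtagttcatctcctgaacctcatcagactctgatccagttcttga
Fcgr4, chr1:171018676-171018975, plus strand: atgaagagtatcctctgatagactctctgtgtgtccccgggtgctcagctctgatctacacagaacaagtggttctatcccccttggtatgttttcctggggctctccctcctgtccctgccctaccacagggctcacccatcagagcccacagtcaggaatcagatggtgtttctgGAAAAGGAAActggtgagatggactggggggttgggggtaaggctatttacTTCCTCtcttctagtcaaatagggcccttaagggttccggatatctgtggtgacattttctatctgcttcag
The Fcgr1 window held a GAS match, TTCCCAGAA, that began at base -109 from the start site. The Fcgr4 window held a match to the interferon-response pair, GAAAAGGAAA, at base -73. The windows of Fcgr1, Fcgr3 and Fcgr4 also held the PU.1 core on the opposite strand (TTCCTC), at bases -55, -6 and -22 (Fcgr3 has a second RefSeq start, from which its match lies at base -15), and those of Fcgr2b and Fcer1g held none of the 3 motifs. Among all 32544 RefSeq windows of this length 8.33% held a GAS match, 3.45% the GAAA pair and 28.1% the PU.1 core, so the PU.1 core in particular is common. The RefSeq starts of Fcgr2b and Fcgr3 lie inside the GENCODE spans given above, and a match describes letters in a window and not a bound site.

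The receptors were abundant transcripts in these macrophages, with the inhibitory one far below the rest. On the TPM scale, which is per length and can be compared between genes, the order was Fcer1g, Fcgr3, Fcgr4, Fcgr1 and Fcgr2b in each of the 9 libraries, and no 2 of these genes overlapped in range. Among all named genes Fcer1g ranked between 35 and 43 from the top in a library, Fcgr3 between 96 and 129, Fcgr4 between 174 and 198, Fcgr1 between 223 and 258 and Fcgr2b between 3820 and 5378. Of the summed TPM of the 4 receptors in wild type, Fcgr3 took 44.2% ± 0.17 (SD, n = 3 libraries), Fcgr4 30.9% ± 0.162, Fcgr1 23.7% ± 0.277 and Fcgr2b 1.22% ± 0.0329.

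**Figure D1:**
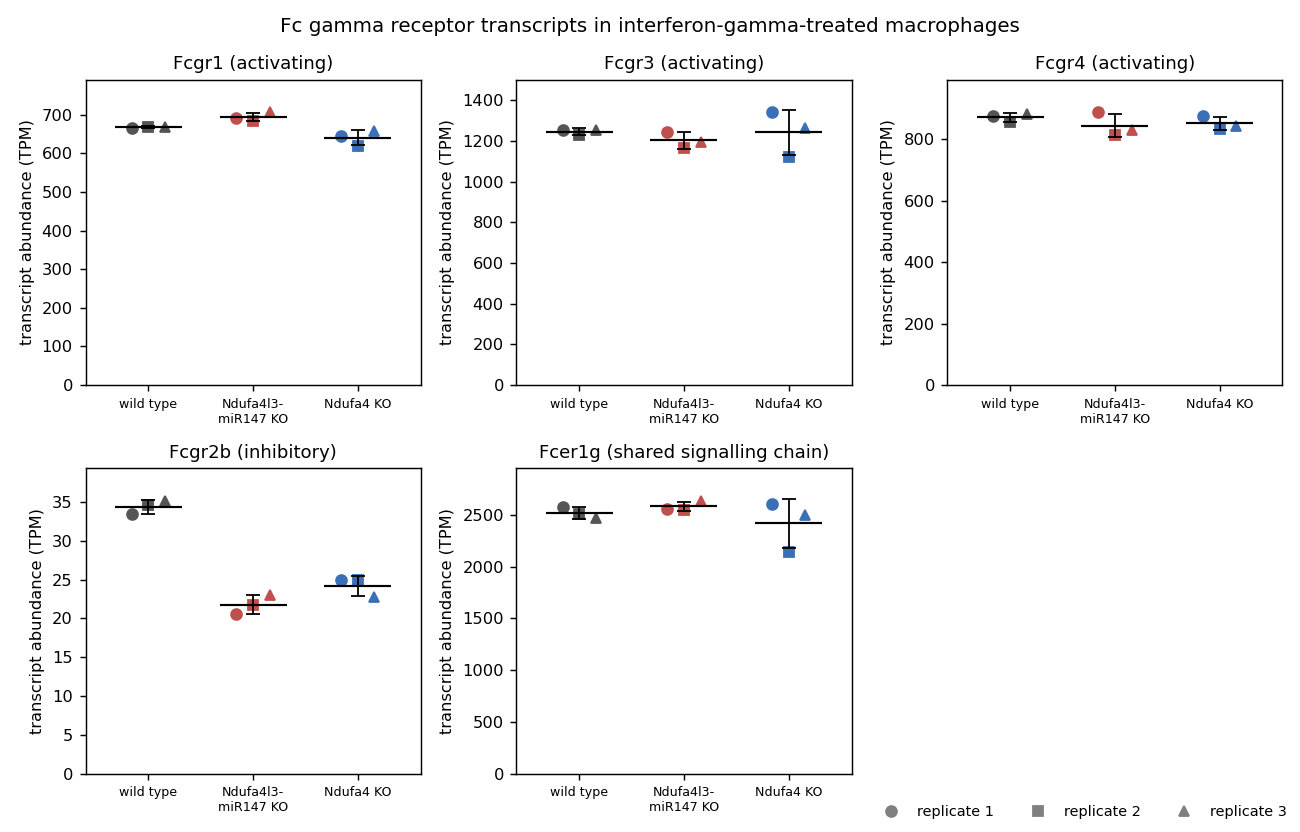
Abundance (TPM, linear axis from 0) of the 5 genes in each library of the 3 genotypes; points are libraries with 1 symbol per replicate number, long bars are means and error bars are SD. The Fcgr2b points of both knockouts, at 20.6 to 25.0 TPM, lie below the wild-type points at 33.4 to 35.1 TPM, while those of Fcgr3, Fcgr4 and Fcer1g overlap between genotypes.

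The libraries were first compared as a whole. They had 10809 to 10959 genes at 1 TPM or more, and their TPM summed to between 913497 and 921705 over the table. Read depth is unknown, since TPM do not retain it. The third replicate of Ndufa4 KO stood apart, at 40.4 on the first principal component (34.5% of the variance) against -11.4 to 4.56 for the other libraries, with an upper quartile of 7.79 TPM against 9.24 to 9.84 and lower values for long transcripts (Spearman rho of -0.409 between deviation and length, over genes). AA467197, the symbol under which Ndufa4l3 is listed, was at 355 to 365 TPM in wild type, 2.21 to 4.50 TPM in its knockout and 472 to 527 TPM in Ndufa4 KO. Ndufa4 itself was listed at 0 in 7 libraries of all genotypes, wild type included, and so checks nothing about the label Ndufa4 KO. Macrophage identity was plain: all 10 macrophage markers were detected, with Lyz2 at 4585 ± 75.2 TPM, Csf1r (the receptor for macrophage colony-stimulating factor) at 971 ± 20.6 and Emr1 (F4/80) at 409 ± 2.94 in wild type.

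The inhibitory receptor Fcgr2b was lower in both knockouts than in wild type. It was at 33.4, 34.6 and 35.1 TPM in the wild-type libraries 1 to 3, at 20.6, 21.7 and 23.0 TPM in Ndufa4l3-miR147 KO and at 24.9, 25.0 and 22.7 TPM in Ndufa4 KO. Every knockout library lay below every wild-type library, and the libraries of both knockouts touched at their edges. In Ndufa4l3-miR147 KO the mean fell by 36.7%, from 34.3 ± 0.882 to 21.7 ± 1.2 TPM (SD, n = 3 libraries each), a difference of -0.64 ± 0.07 in log2(TPM + 1) (estimate ± SE, 95% confidence interval -0.79 to -0.49, limma adjusted p = 0.0046). In Ndufa4 KO it fell by 29.5% to 24.2 ± 1.30 TPM, a difference of -0.49 ± 0.07 (-0.64 to -0.34, limma adjusted p = 0.0044). In bulk RNA, fewer cells that express a gene and less of its RNA per cell cannot be told apart.

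Against wild type 1 of the 5 genes was called in each knockout, Fcgr2b in both, where a call means an adjusted p under 0.05 (Benjamini-Hochberg, across every gene kept). In Ndufa4l3-miR147 KO 0.431% of all 11133 genes were called in either direction and 0.189% as lower, and Fcgr2b stood at rank 13 by p. In Ndufa4 KO 8.59% were called and 5.76% as lower, and Fcgr2b stood at rank 117. Both comparisons use the same wild-type libraries, so its fall in one is not independent of its fall in the other. Directly compared, the knockouts differed in Fcgr2b by -0.15 ± 0.07 (Ndufa4l3-miR147 KO minus Ndufa4 KO, 95% confidence interval -0.30 to 0.0031, limma adjusted p = 0.26), which did not pass the test and leaves room for a difference of up to 0.30. In this comparison of the knockouts 0 of the 5 genes were called by limma, against 3.24% of all genes. At an unadjusted p under 0.05 there was 1 of the 5 (Fcgr1), against 2263 of all 11133 genes, which is near the background.

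Fcgr2b stayed called as lower in both knockouts under each of the 21 alternatives run per comparison. Without the third Ndufa4 KO replicate, which stood apart, its difference in that knockout was -0.45 (limma adjusted p = 0.0028). With the trend of each library against transcript length removed it was -0.64 in Ndufa4l3-miR147 KO and -0.44 in Ndufa4 KO. The share of Ndufa4 KO calls that were higher was 32.9% here, 52.1% with median-of-ratios scaling, 51.7% with quantile normalization and 57.2% with the length trend removed. Between the knockouts the share of higher calls was 67.9%, and 49.3%, 51.0% and 43.2% under these settings in turn.

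The activating receptors did not pass the test in any comparison, and their differences were small beside that of Fcgr2b. Fcgr1, the high-affinity receptor, was at 665, 669 and 669 TPM in wild type, at 692, 685 and 706 TPM in Ndufa4l3-miR147 KO and at 644, 619 and 657 TPM in Ndufa4 KO. Its libraries did not overlap between any 2 genotypes and were ordered Ndufa4l3-miR147 KO, wild type, Ndufa4 KO. The means were 668 ± 2.35 TPM in wild type, 694 ± 10.3 in Ndufa4l3-miR147 KO and 640 ± 19.3 in Ndufa4 KO.

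On the log2(TPM + 1) scale Fcgr1 differed from wild type by 0.056 ± 0.04 in Ndufa4l3-miR147 KO (-0.03 to 0.14, limma adjusted p = 0.86) and by -0.062 ± 0.04 in Ndufa4 KO (-0.15 to 0.024, limma adjusted p = 0.33). Between the knockouts it differed by 0.12 ± 0.04 (0.032 to 0.20, limma adjusted p = 0.14). That last difference passed without the third Ndufa4 KO replicate (0.14, limma adjusted p = 0.038) and was 0.022 with the length trend removed and 0.047 with median-of-ratios scaling. Libraries without overlap were common: 23.9% of all genes showed it in Ndufa4l3-miR147 KO against wild type, 31.1% in Ndufa4 KO against wild type and 25.3% between the knockouts, against 2, 2 and 1 of the 5 Fc receptor genes (Fcgr1 in each, and Fcgr2b in both comparisons with wild type).

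Fcgr3, the low-affinity activating receptor of most myeloid cells, was at 1255, 1228 and 1257 TPM in wild type, at 1247, 1165 and 1197 TPM in Ndufa4l3-miR147 KO and at 1341, 1123 and 1265 TPM in Ndufa4 KO. The widest spread was within Ndufa4 KO, whose libraries enclosed all others. Its differences from wild type were -0.052 ± 0.06 (-0.19 to 0.09) and -0.0082 ± 0.06 (-0.15 to 0.13), with limma adjusted p of 1 and 0.95.

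Fcgr4, which binds IgG2a and IgG2b with intermediate affinity, was at 876, 857 and 884 TPM in wild type, at 888, 816 and 831 TPM in Ndufa4l3-miR147 KO and at 876, 835 and 845 TPM in Ndufa4 KO. The genotypes overlapped throughout. Its differences from wild type were -0.047 ± 0.04 (-0.15 to 0.052) and -0.033 ± 0.04 (-0.13 to 0.066), with limma adjusted p of 0.96 and 0.66.

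Fcer1g, the chain that the activating receptors share, was at 2574, 2507 and 2464 TPM in wild type, at 2559, 2550 and 2631 TPM in Ndufa4l3-miR147 KO and at 2602, 2144 and 2501 TPM in Ndufa4 KO. The second Ndufa4 KO library was the lowest, well under the other 8, which lay between 2464 and 2631 TPM. The differences from wild type were 0.037 ± 0.07 (-0.11 to 0.19) and -0.063 ± 0.07 (-0.21 to 0.087), with limma adjusted p of 1 and 0.58. The intervals of Fcgr1, Fcgr3, Fcgr4 and Fcer1g against wild type reach no lower than -0.21, and that of Fcgr2b no higher than -0.34. With median-of-ratios scaling the differences of all 4 in Ndufa4 KO lay above 0 (0.0073 to 0.062), and none passed the test. Between the knockouts Fcgr3, Fcgr4 and Fcer1g differed by -0.044 (-0.19 to 0.098), -0.013 (-0.11 to 0.086) and 0.10 (-0.05 to 0.25).

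**Figure D2:**
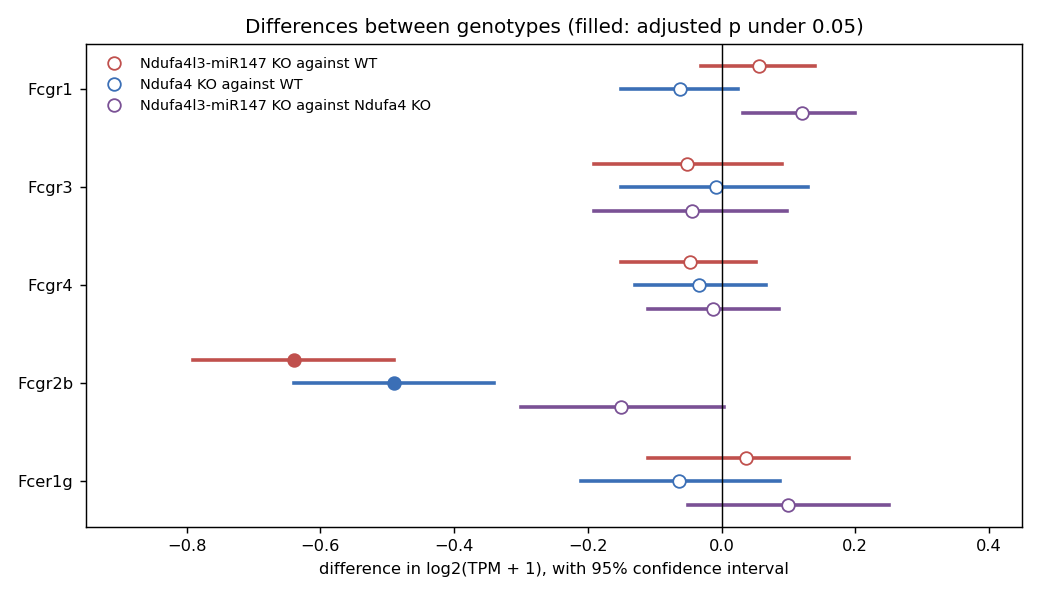
Difference in log2(TPM + 1) for each gene in the 3 comparisons (x axis), with 95% confidence intervals from limma; filled points had an adjusted p under 0.05. Fcgr2b is filled against wild type, at -0.64 and -0.49, and the intervals of the other genes against wild type include 0.

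The balance between activating and inhibitory transcripts moved with Fcgr2b. The ratio of summed Fcgr1, Fcgr3 and Fcgr4 to Fcgr2b, taken within each library so that the library's total cancels, was 83.8, 79.7 and 80.1 in wild type. It was 137, 123 and 119 in Ndufa4l3-miR147 KO and 115, 103 and 122 in Ndufa4 KO. All 6 knockout libraries lay above all 3 of wild type, and both knockouts overlapped each other. The means were 81.2 ± 2.25, 126 ± 9.69 and 113 ± 9.46 (SD, n = 3 libraries each), or 0.64 and 0.48 higher than wild type on the log2 scale. No test was made of a ratio over genes chosen with the data known.

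Each activating receptor alone showed the same separation from wild type in its ratio to Fcgr2b. These ratios share Fcgr2b as denominator, so they restate its fall and are not separate observations. Fcgr1 to Fcgr2b was 19.5 ± 0.437 in wild type, 32 ± 1.5 in Ndufa4l3-miR147 KO and 26.5 ± 2.17 in Ndufa4 KO. Fcgr3 to Fcgr2b was 36.3 ± 1.13, 55.5 ± 4.52 and 51.5 ± 5.75, and Fcgr4 to Fcgr2b was 25.4 ± 0.74, 39.0 ± 3.68 and 35.3 ± 1.90. Transcripts of the signalling chain relative to those of the activating receptors did not separate. Fcer1g to the sum of Fcgr1, Fcgr3 and Fcgr4 was 0.903 ± 0.0228, 0.942 ± 0.0314 and 0.882 ± 0.0432, with overlapping libraries. Ratios of RNA do not give the amounts of chain or receptor protein. Fcgr2b made up 1.22% of receptor transcripts in wild type, 0.787% ± 0.0578 in Ndufa4l3-miR147 KO and 0.879% ± 0.0745 in Ndufa4 KO.

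**Figure D3:**
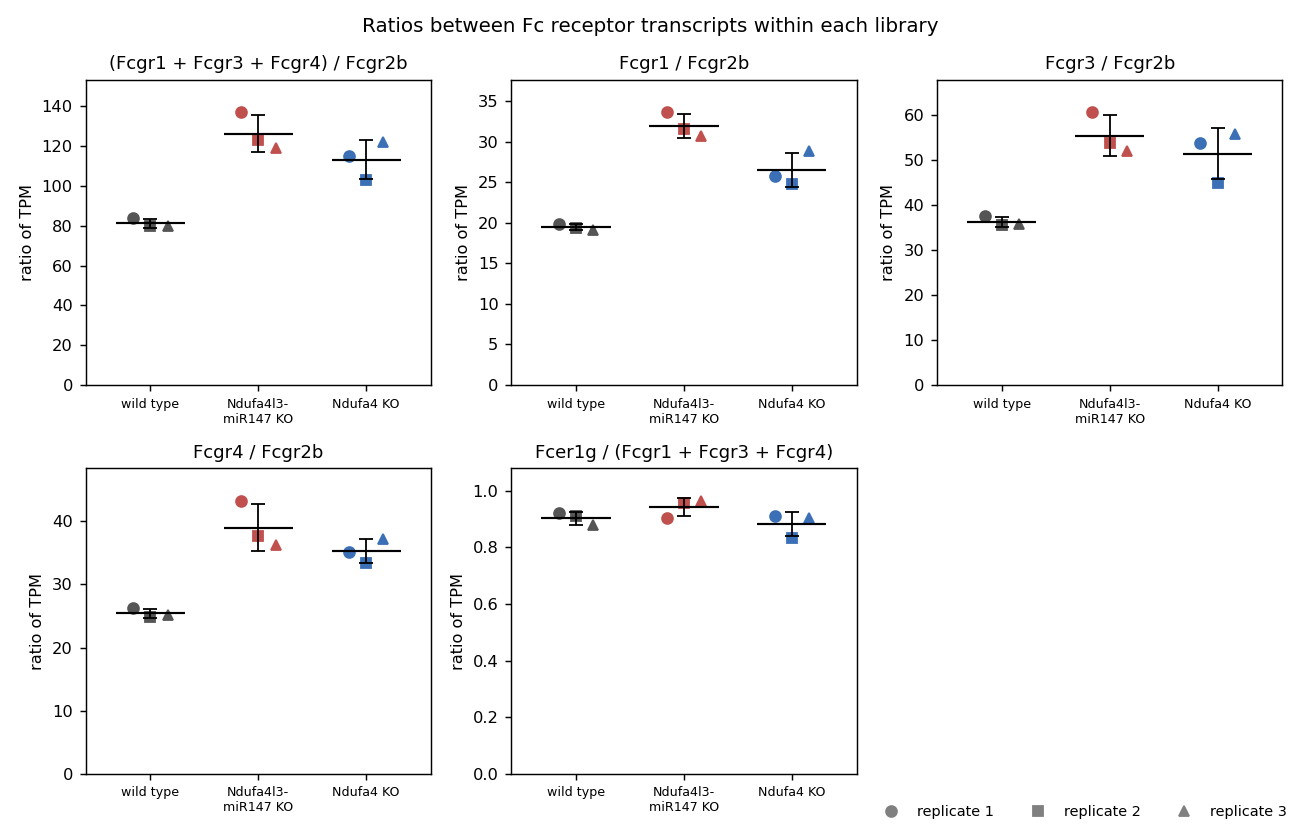
Ratios between TPM within each library (y axis from 0) by genotype; points are libraries, long bars are means and error bars are SD. All ratios to Fcgr2b are higher in both knockouts than in wild type without overlap, and the ratio of Fcer1g to the activating receptors overlaps.

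Across the 9 libraries the genes varied in different ways. Pearson's r of log2(TPM + 1), given as a description over libraries that share 3 genotypes, was 0.74 between Fcgr1 and Fcer1g, 0.719 between Fcgr3 and Fcgr4 and 0.616 between Fcgr3 and Fcer1g. Fcgr2b was only loosely related to the others, at 0.414 with Fcgr4, 0.20 with Fcgr3, -0.071 with Fcer1g and -0.192 with Fcgr1. The lowest Fcgr3 library, the second of Ndufa4 KO, was the highest Fcgr2b library among the knockouts.

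The genes whose pattern over the 9 libraries was most like each member were listed among 7066 genes with a mean of at least 10 TPM. They were picked for that pattern in these same libraries, so a shared order of genotypes goes with the choice and is no separate support. For Fcgr1 they were Cd300ld (r = 0.986), Ssr2 (0.974), Irf7 (0.964), Ly6e (0.962) and Ctla2b (0.953). Irf7, a transcription factor of the type I interferon response, was at 399 ± 9.05 TPM in wild type, 488 ± 16.1 in Ndufa4l3-miR147 KO and 307 ± 23.3 in Ndufa4 KO, in the same order of genotypes as Fcgr1. It differed by 0.67 ± 0.06 between the knockouts (limma adjusted p = 8.7e-04), against 0.12 for Fcgr1.

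For Fcgr2b the most alike were Ighm (0.954), Tnfaip2 (0.931), Ppil3 (0.911), Hexim1 (0.906) and Scarb1 (0.905). Ighm, the constant region of IgM and a gene of B cells, was at 43.3, 44.2 and 45.2 TPM in wild type, at 28.6, 27.2 and 27.8 TPM in Ndufa4l3-miR147 KO and at 31.2, 26.9 and 28.2 TPM in Ndufa4 KO. It fell by 0.65 on the log2 scale in Ndufa4l3-miR147 KO (SE 0.07, limma adjusted p = 0.0041) and by 0.61 in Ndufa4 KO (SE 0.07, limma adjusted p = 0.0014), under each alternative run. Ighm was picked for its likeness to Fcgr2b, so a fall in both knockouts goes with that choice. For Fcgr3 the most alike were Zfand6, Ptcd2, Atp5c1, Gabarap and Nars (r of 0.909 to 0.943), for Fcgr4 Cspp1, Atp5f1, Cnpy4, Ptpn7 and Ctbp1 (0.891 to 0.949) and for Fcer1g Psma2, Blnk, Ptcd1, Wdr70 and Cgrrf1 (0.897 to 0.936).

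Because B cells express Fcgr2b strongly and Fcgr3 and Fcgr4 little, their markers are given beside its fall. The summed TPM of 12 B cell and plasma cell markers was 45.9 to 48.3 in wild type, 29.8 to 31.7 in Ndufa4l3-miR147 KO and 30.5 to 33.3 in Ndufa4 KO, and so moved in the direction of Fcgr2b. Almost all of that sum was Ighm. Of the 12 markers 10 stayed under 1 TPM in every library, among them Cd79a (0 to 0.303), Ms4a1 (0 to 0.139) and Pax5 (0 to 0.551), which define B cells. A part of B cells in the fall of Fcgr2b was not tested beyond these levels.

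Markers of other cell types that carry Fc receptors are given as levels. Of 9 mast cell and basophil markers 8 stayed under 1 TPM in every library, with Fcer1a, the IgE-binding chain that uses Fcer1g, listed at 0 in each, and their sum was 2.42 to 5.15 TPM. Of 12 natural killer and T cell markers 11 stayed under 1 TPM, with a sum of 2.36 to 3.08 TPM. Neutrophil markers spread widely within each genotype, with sums of 14.3 to 95 TPM in wild type, 50.5 to 87.6 in Ndufa4l3-miR147 KO and 13.3 to 53.1 in Ndufa4 KO, and 0 of 8 kept were called by limma against wild type (0 at an unadjusted p under 0.05). Dendritic cell markers summed to 1679 to 1733 TPM in wild type, 1851 to 1941 in Ndufa4l3-miR147 KO and 1266 to 1559 in Ndufa4 KO. Nearly all of that sum was Bst2, which interferons induce in many cell types, at 1674 ± 26.3, 1867 ± 47.6 and 1329 ± 169 TPM, while Clec9a went the other way in Ndufa4 KO, from 26.7 ± 1.26 to 55.2 ± 17.4 TPM. Among the 3 kept, Clec9a rose by 0.98 and Bst2 fell by 0.34 in Ndufa4 KO (limma adjusted p = 0.017 and 0.031, up to 0.072 and 0.11 without any 1 wild-type library, and for Bst2 also lost without any 1 Ndufa4l3-miR147 KO library or the second Ndufa4 KO library), and 0 were called by limma in Ndufa4l3-miR147 KO (0 at an unadjusted p under 0.05). The part of these cells in the Fc receptor values was not tested.

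Genes that transmit signals below the activating receptors were 34 kept of 37. In Ndufa4l3-miR147 KO 0 were called by limma (4 at an unadjusted p under 0.05, against 917 of all 11133 genes), with a median of 0.011 against 0.0012 for all genes, though 1 was called without the third Ndufa4 KO replicate. With 0.431% of all genes called in that comparison, a count of 0 in this or the lists that follow is near the background and says nothing about a list. In Ndufa4 KO, where 8.59% of all genes were called and 5.76% as lower, 2 rose and 5 fell. The median there was -0.019 against -0.076 for all genes.

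Arpc2, a subunit of the actin-nucleating Arp2/3 complex that builds the phagocytic cup, rose by 0.15 ± 0.04 in Ndufa4 KO. Pik3cd (a catalytic subunit of phosphoinositide 3-kinase), Rac2 (a GTPase of the actin cytoskeleton) and Prkcd (a protein kinase C) fell by 0.33, 0.22 and 0.23 on the log2 scale there, with limma adjusted p of 0.020, 0.028 and 0.029. Syk, the kinase that binds the phosphorylated chain, was named after its value was seen and fell by 0.20 from 60.9 ± 0.205 to 52.9 ± 2.0 TPM (limma adjusted p = 0.041). The calls of these 5 genes were lost without any 1 wild-type library and, except for Pik3cd, without any 1 Ndufa4l3-miR147 KO library (limma adjusted p of up to 0.15 for Arpc2, 0.084 for Pik3cd, 0.12 for Rac2 and Prkcd and 0.14 for Syk). Rac2 was also lost without the second and Syk without the first Ndufa4 KO library. Without any 1 wild-type library 1 member rose and 0 fell, and with the length trend removed 3 rose and 0 fell, with a median of 0.06 (limma adjusted p = 0.84 for Syk).

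On the inhibitory side, 15 of 16 genes that act at ITIM receptors were kept. In Ndufa4l3-miR147 KO 0 were called by limma (1 at an unadjusted p under 0.05), with a median of 0.076. In Ndufa4 KO, where 8.59% of all genes were called and 5.76% as lower, 1 rose and 3 fell. The median there was -0.13 against -0.076 for all genes. Dok2, an adapter that dampens Ras signalling, rose by 0.41 ± 0.06 to 132 ± 6.28 TPM (limma adjusted p = 0.0048) and kept its call under each alternative. Inppl1, a close relative of Inpp5d, fell by 0.40 from 85.2 ± 4.50 to 64.2 ± 4.85 TPM (limma adjusted p = 0.0085). Its call was lost with only the 6 libraries compared (0.053) and with the length trend removed (0.057, and 0.10 with the replicate block as well).

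Inpp4b, which removes a phosphate from a phosphoinositide 3-kinase product, was at 9.53, 9.60 and 9.34 TPM in wild type and 4.67, 5.63 and 2.63 TPM in Ndufa4 KO, and fell by 1.03 (limma adjusted p = 0.017). Dok3, an adapter related to Dok2, fell by 0.69 (limma adjusted p = 0.039). Without any 1 wild-type library Inpp4b and Dok3 lost their calls, with limma adjusted p of up to 0.071 and 0.14, and the list had 1 member that rose and 1 that fell. Dok3 also lost its call without the second Ndufa4 KO library or any 1 Ndufa4l3-miR147 KO library. Inpp5d, the phosphatase that Fcgr2b recruits, was named after its values were seen. It was at 273, 267 and 269 TPM in wild type, at 220, 273 and 257 TPM in Ndufa4l3-miR147 KO and at 168, 297 and 143 TPM in Ndufa4 KO, and the spread in the last group was too wide for a call (-0.49 ± 0.22, limma adjusted p = 0.21).

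**Figure D4:**
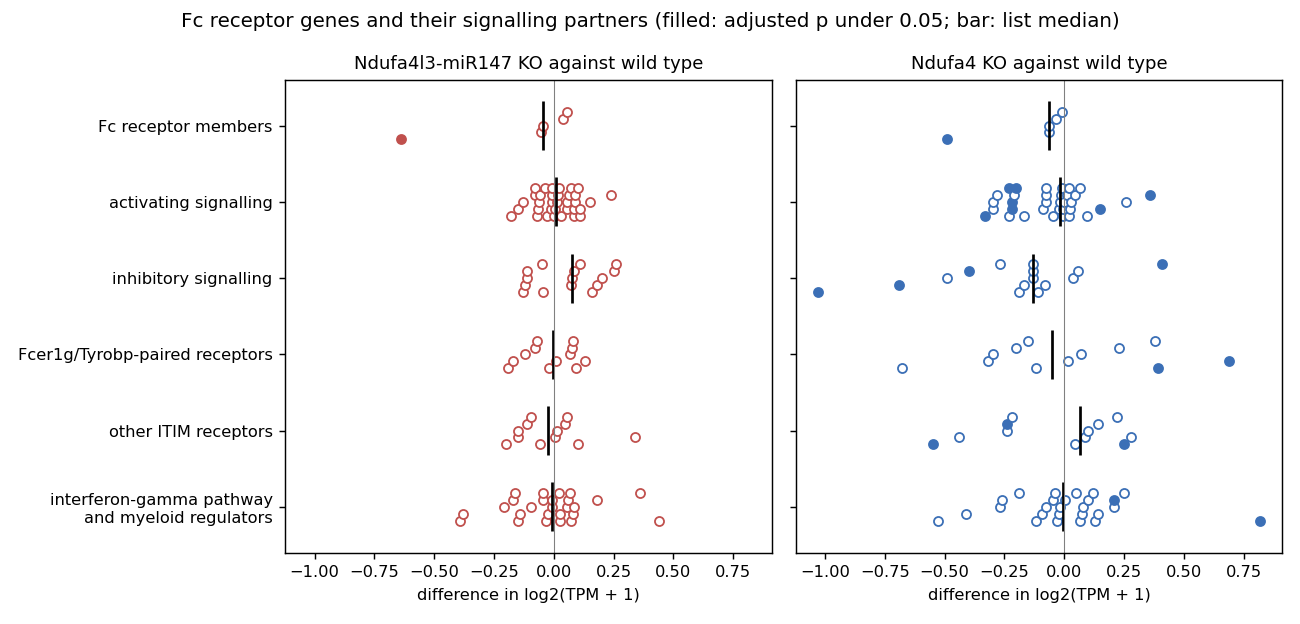
Difference in log2(TPM + 1) from wild type (x axis) for the kept genes of 6 lists (the Fc receptor genes, activating signalling, inhibitory signalling, paired receptors, other ITIM receptors and the interferon-gamma pathway with myeloid regulators) in Ndufa4l3-miR147 KO (left) and Ndufa4 KO (right); each point is a gene, filled where its adjusted p was under 0.05, and vertical bars are list medians. Of these 6 lists the left panel has 1 filled point, Fcgr2b at -0.64.

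A list made up mostly of receptors that share the chain Fcer1g, or its relative Tyrobp, was compared next. Tyrobp itself was listed at 0 TPM in every genotype, wild type included, which says nothing about its true level. Of 12 kept of 24 listed, 0 were called by limma in Ndufa4l3-miR147 KO (0 at an unadjusted p under 0.05). In Ndufa4 KO, where 8.59% of all genes were called, 2 rose and 0 fell. These were Clec7a and Clec5a (limma adjusted p = 0.013 and 0.016). Clec7a (dectin-1, a receptor for fungal glucan that carries a signalling motif of its own) rose by 0.69 ± 0.13 from 105 ± 7.06 to 172 ± 32.4 TPM. Clec5a rose by 0.39 ± 0.07. Without wild-type library 1 or 3 neither was called (limma adjusted p of up to 0.063 and 0.073), and without library 2 only Clec7a was. Among 12 other ITIM-bearing receptors 0 were called by limma in Ndufa4l3-miR147 KO (1 at an unadjusted p under 0.05, and 1 called without the first or the third Ndufa4 KO library). In Ndufa4 KO Clec12a rose by 0.25 and Cd72 and Ceacam1 fell by 0.24 and 0.55, and without any 1 wild-type library 0 of these stayed called (limma adjusted p of up to 0.12, 0.11 and 0.098). Clec12a was also lost without any 1 Ndufa4l3-miR147 KO library, and Cd72 without the second.

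Among the other immunoglobulin receptors 5 of 15 were kept. Fcrls, an Fc receptor-like protein of macrophages and microglia, was at 213, 209 and 227 TPM in wild type, at 250, 239 and 223 TPM in Ndufa4l3-miR147 KO and at 158, 159 and 137 TPM in Ndufa4 KO. It fell by 0.51 in Ndufa4 KO (SE 0.07, limma adjusted p = 0.0045) and was 0.65 ± 0.07 higher in Ndufa4l3-miR147 KO than in Ndufa4 KO (limma adjusted p = 0.0022), both under each alternative run. This differs from Fcgr2b, whose libraries were low in both knockouts. In Ndufa4l3-miR147 KO 0 of the 5 were called by limma (1 at an unadjusted p under 0.05). B2m, the light chain of the neonatal Fc receptor, was at 11261 ± 431 TPM there against 10984 ± 266 in wild type. Fcgrt, the heavy chain of that receptor, was chosen with its values in view and was at 19.1, 16.3 and 16.6 TPM in wild type, at 13.9, 12.5 and 12.3 TPM in Ndufa4l3-miR147 KO and at 13.8, 15.4 and 15.0 TPM in Ndufa4 KO. Its knockout libraries all lay below those of wild type, as for Fcgr2b, but neither difference passed the test (-0.39 ± 0.09 and -0.22 ± 0.09, limma adjusted p of 0.15 in both).

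The interferon-gamma pathway and the factors that drive myeloid genes were compared next, since every library had received interferon-gamma. Of 26 kept, 0 were called by limma in Ndufa4l3-miR147 KO (6 at an unadjusted p under 0.05), with a median of -0.0074. The 2 most abundant were Gbp2, a guanylate-binding protein (-0.14 ± 0.07, limma adjusted p = 0.66), and Cxcl10, a T cell attractant (-0.16 ± 0.10, 0.79). In Ndufa4 KO, where 8.59% of all genes were called, Cxcl9 rose by 0.82 ± 0.15 and Irf5 by 0.21 ± 0.04 (limma adjusted p = 0.016 and 0.023). The list median was -0.0068, and neither gene was called without wild-type library 2 or 3 (up to 0.069 and 0.10). Irf5 was also lost without wild-type library 1 or the second Ndufa4l3-miR147 KO library. Spi1, which encodes PU.1 and was chosen with its values in view, differed from wild type by -0.0091 ± 0.07 in Ndufa4l3-miR147 KO and by 0.076 ± 0.07 in Ndufa4 KO.

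Macrophage markers summed to 9158 to 9276 TPM in wild type, 8743 to 8915 in Ndufa4l3-miR147 KO and 9746 to 10179 in Ndufa4 KO, about as Lyz2 alone did, at 4585 ± 75.2, 4094 ± 68.7 and 5414 ± 234 TPM. Cd14 (153 ± 5.67, 127 ± 6.97 and 85.2 ± 3.10 TPM) and Mrc1 (38.4 ± 2.54, 31.2 ± 0.461 and 28.2 ± 4.46 TPM) were lower in all libraries of both knockouts than in wild type, as Fcgr2b was, and in Ndufa4l3-miR147 KO neither passed the test (-0.27 and -0.29, limma adjusted p = 0.12 and 0.48). Their part in the fall of Fcgr2b was not tested. Of 10, 0 were called by limma in Ndufa4l3-miR147 KO (4 at an unadjusted p under 0.05, and 1 called without the third Ndufa4 KO library). In Ndufa4 KO, where 8.59% of all genes were called, Lyz2 rose by 0.24. Cd14 (a co-receptor for lipopolysaccharide), Mrc1 (the mannose receptor) and Mertk (a receptor for dying cells) fell there by 0.84, 0.44 and 0.51. Cd14 kept its call under each alternative. Mrc1 and Mertk lost theirs without any 1 wild-type or Ndufa4l3-miR147 KO library (limma adjusted p of up to 0.14 and 0.15), and Lyz2 without library 1 or 2 (up to 0.065). Csf1r and Emr1 differed from wild type by -0.056 and -0.055 in Ndufa4l3-miR147 KO and by -0.0097 and 0.034 in Ndufa4 KO.

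Between the knockouts, which Fcgr2b did not separate, several genes of these lists were called, in a comparison where 3.24% of all genes were. Dok2 was lower in Ndufa4l3-miR147 KO than in Ndufa4 KO (-0.34, limma adjusted p = 0.018), and Inpp4b and Pik3r5, a regulatory subunit of phosphoinositide 3-kinase, were higher by 1.22 and 0.27 (0.015 and 0.027). Clec7a was lower (-0.76, limma adjusted p = 0.015). Inpp4b, Pik3r5 and Clec7a lost these calls without any 1 Ndufa4l3-miR147 KO library, Pik3r5 also without any 1 wild-type library, and Dok2 without replicate 2 or 3 of Ndufa4l3-miR147 KO (limma adjusted p of up to 0.077, 0.12, 0.075 and 0.089 for Inpp4b, Pik3r5, Clec7a and Dok2). Pik3r5 kept its call in only 8 of 21 alternatives, with a limma adjusted p of 0.48 once the length trend was removed. Cxcl9 (-1.21) and Lyz2 (-0.40) were lower and Cd14 (0.57) was higher under each alternative run (limma adjusted p = 0.0052, 0.0017 and 0.0015).

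The position of Fcgr2b within the cluster was examined through its neighbours, 24 kept genes with start sites between -1445.1 and 412.4 kb of its own. In Ndufa4l3-miR147 KO 0 of the 24 were called by limma (0 at an unadjusted p under 0.05), with differences between -0.23 and 0.37 and a median of -0.044. The nearest kept gene on the far side, Gm2962 at -50.9 kb, differed by 0.37 ± 0.60 and Dusp12 at -91.0 kb by -0.21 ± 0.11. On the other side Fcgr4 and Fcgr3, at 42.4 and 88.4 kb, did not pass the test (above), and Sdhc at 174.1 kb differed by -0.024 ± 0.06.

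In Ndufa4 KO, where 8.59% of all genes were called and 5.76% as lower, 2 of the 24 fell. These were Sh2d1b1 at -699.2 kb (an adapter of natural killer cells, -0.74 ± 0.12, limma adjusted p = 0.0093) and Pcp4l1 at 219.7 kb (-0.33 ± 0.08, limma adjusted p = 0.038). Pcp4l1 was not called when any of the other 8 libraries was left out, the exception being the third Ndufa4 KO replicate (limma adjusted p of up to 0.14). A longer list of genes near the cluster, 26 kept of 35, had 0 called by limma in Ndufa4l3-miR147 KO (3 at an unadjusted p under 0.05) and 3 that fell in Ndufa4 KO, the third being Usf1 (-0.40, limma adjusted p = 0.042, up to 0.13 without any 1 wild-type or Ndufa4l3-miR147 KO library). Of 20 genes around Fcgr1 on chromosome 3, 0 were called by limma in Ndufa4l3-miR147 KO (1 at an unadjusted p under 0.05). In Ndufa4 KO the histone gene Hist2h2aa2, which has near-identical copies, was called higher by 1.06 (limma adjusted p = 0.015, and 0.063 without wild-type library 3). Hist2h2aa1 beside it went the other way there without a call (-1.74 ± 1.22, limma adjusted p = 0.4), at 3.6e-07 to 52.5 TPM in the Ndufa4 KO libraries. A list of 25 kept genes near Fcgr1 had 0 called by limma in either knockout against wild type. At an unadjusted p under 0.05 it had 0 and 7, against 917 and 2905 of all 11133 genes.

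**Figure D5:**
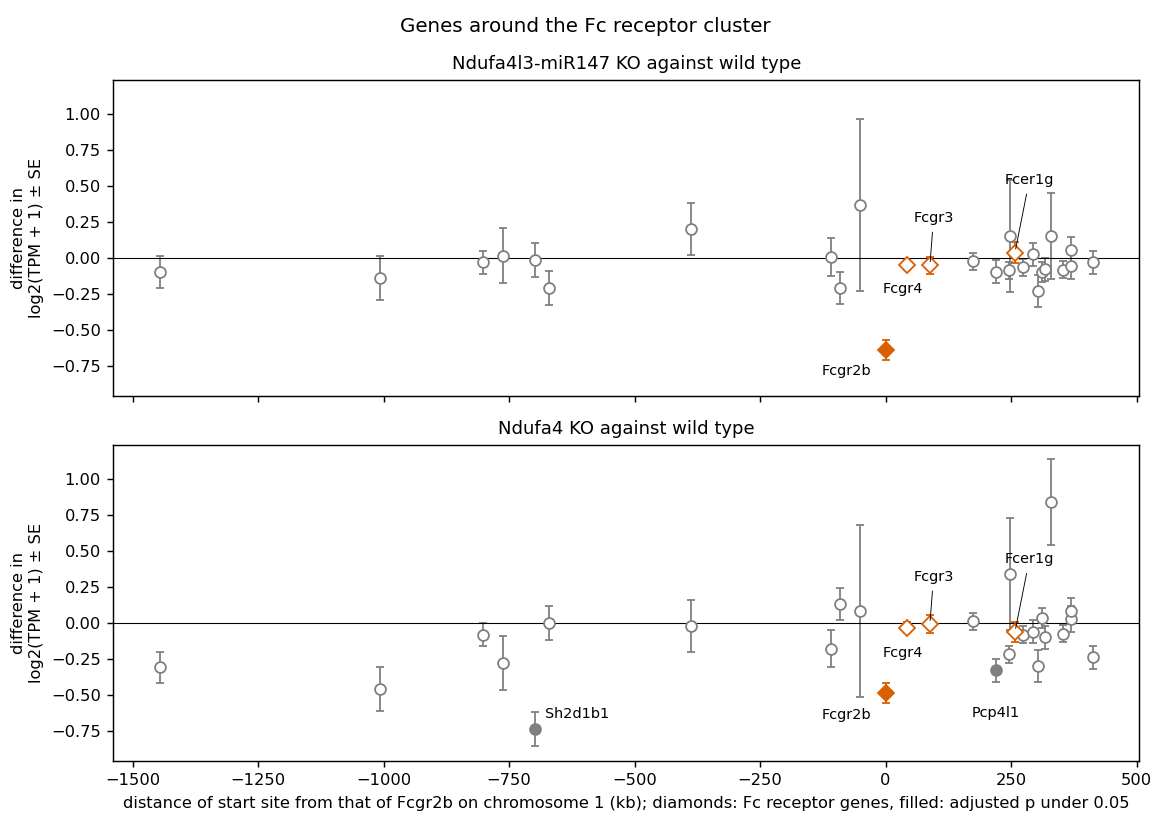
Difference in log2(TPM + 1) from wild type ± SE (y axis) for genes around the Fc receptor cluster, by the distance of their start site from that of Fcgr2b in kb (x axis), in Ndufa4l3-miR147 KO (top) and Ndufa4 KO (bottom); diamonds are Fc receptor genes and filled points had an adjusted p under 0.05. Fcgr2b is the only filled point in the top panel, and Sh2d1b1 and Pcp4l1 are filled beside it in the bottom panel.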

How the data were processed

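The authors deposited 1 table of TPM, and kallisto, DESeq2 and edgeR are named in the submitters' processing notes without versions or roles, with builds mm10 and GRCm39. The sources used here do not give the division of shared reads or the annotation. An entry with no symbol, 0.003% of a library or less, was dropped. Values were transformed to log2(TPM + 1), which understates changes of low genes, and genes with at least 1 TPM in 3 of 9 libraries were fitted with limma 3.58.1 (R 4.3.3, trended variance, 1 mean per genotype over all libraries, two-sided). Calls were made at 0.05 after Benjamini-Hochberg adjustment across the 11133 genes. The procedure was tested on simulated data.

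The members and 14 gene lists were chosen with earlier results of these data known. Of 256 list genes, members included, 255 were found, 7 by an older symbol. The rule named all members, the 3 called list genes of lowest adjusted p in each direction, or else the 2 most abundant, the 5 most alike genes per member, and called or nearest neighbours among 10 kept genes per side; other genes are marked as named after their values were seen. Some genes that the rule names are not reported here. Replicate numbers in the labels did not pair the libraries. Alternatives were another scaling, pseudocount, filter or variance model, library weights, the replicate block, removal of the length trend and each library left out.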

Additional observations from a re-analysis of the deposited data

How the results depend on the processing

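Of 21 alternatives per comparison, each kept Fcgr2b lower and called in both knockouts against wild type, with differences of -0.68 to -0.60 and -0.51 to -0.45 when 1 library was left out and of -0.66 to -0.56 and -0.50 to -0.39 otherwise (limma adjusted p of up to 0.048 and 0.031). The log2 change of the activating to Fcgr2b ratio was 0.58 to 0.68 and 0.42 to 0.54 when 1 library was left out. With library weights 3 of the 5 genes were called in Ndufa4 KO against wild type (also Fcgr1, -0.10, and Fcer1g, -0.20). Between the knockouts 3 were called with these weights (Fcgr1, 0.16, Fcer1g, 0.24, and Fcgr2b, -0.18, limma adjusted p = 0.03). When 1 library was left out 0 to 1 were called between the knockouts, where Fcgr2b differed by -0.19 to -0.11.

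Members that were not called changed sign. In Ndufa4 KO against wild type Fcgr1, Fcgr3, Fcgr4 and Fcer1g differed by 0.0084, 0.062, 0.037 and 0.0073 with median-of-ratios scaling. With the length trend removed, with or without the replicate block, Fcgr1, Fcgr3 and Fcgr4 differed by 0.033, 0.03 and 0.0028. Leaving out 1 library gave -0.065 to 0.063 for Fcgr3 and -0.12 to 0.021 for Fcer1g. Between the knockouts Fcgr3 and Fcgr4 differed by 0.036 and 0.011 with quantile normalization, Fcgr3 by 0.064 with library weights, and by -0.12 to 0.013 and -0.049 to 0.012 when 1 library was left out. None of these passed the test, and the cause was not tested.

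The count over all genes moved most. It was 48, 956 and 361 in the 3 comparisons, and 13 to 202, 261 to 1587 and 82 to 742 when 1 library was left out, highest without the third Ndufa4 KO replicate. With library weights it was 538, 3045 and 1726, with only the 6 libraries compared 306, 238 and 64, and without the variance trend 30 in the first. Replicate numbers did not pair the libraries: deviations of same-numbered libraries correlated at -0.138 to 0.179, and with the replicate block the counts were 24, 661 and 162 (240 in the last with the length trend also removed), with Fcgr2b at -0.64 and -0.49 still called (limma adjusted p = 0.033 and 0.019). Unknown read depth leaves counting error unmeasured, and replicates called technical limit every p-value.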
